A study of Mus musculus with 10 samples.

Results

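The 7 mouse sirtuin genes, Sirt1 to Sirt7, were followed in RNA-seq data of whole ovaries. They were picked by symbol from a table of 55487 genes, and all 7 were found, were counted in every ovary and passed the filter on low counts that left 18956 genes. The ovaries came from C57BL/6J mice of 3 groups. Control mice (n = 4) were 8 weeks old. Aged mice (n = 3) and Aged+CF mice (n = 3) were 11 months old by the sample labels and 10 months old by the study's methods. Aged+CF mice had received 200 μL of cell-free fat extract (CEFFE), a cell-free protein solution prepared from fat tissue, at 3 μg/μL through a tail vein at intervals of 2 days over 2 weeks, and the Control and Aged mice had received saline. All mice, controls included, had been given 10 IU of PMSG, a gonadotropin that stimulates follicle growth, 48 h before the ovaries were collected. The replicate numbers used here are those of the labels, 31 to 34 for Control, 31, 33 and 34 for Aged and 30, 32 and 34 for Aged+CF.

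Sirtuins are enzymes that use NAD to remove acetyl and longer acyl groups from lysines of proteins, and some members also transfer ADP-ribose. SIRT1, SIRT6 and SIRT7 act mainly in the nucleus, SIRT2 acts mainly in the cytosol, and SIRT3, SIRT4 and SIRT5 are mitochondrial. The family is studied in ageing because its activity depends on NAD, and in the ovary its members are expressed in oocytes and in the somatic cells of the follicle.

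The gene counts of an ovary summed to 15761789 to 21318254 reads, and 208 to 1581 of them fell on a single sirtuin. The levels are from whole ovaries, in which fewer cells of a type and less RNA per cell cannot be told apart. Of 10 lists of cell type markers, the summed level of 8 did not overlap between Aged and Control, higher in Aged for 6 (theca and steroidogenic, luteal, endothelial, macrophage, B and plasma cell, and erythroid markers) and lower for 2 (oocyte and granulosa cell markers), and that of 4 did not overlap between Aged+CF and Aged. Of all genes, 27.5% and 18.6% did not overlap in these comparisons. Lhcgr is in both the theca and luteal lists. In Aged vs Control edgeR called 0 of 12 granulosa cell markers at an adjusted p under 0.05. It called 14 of 19 oocyte markers, all lower, and 6 of 9 theca and steroidogenic markers, 5 higher and 1 lower. Called higher were 6 of 6 luteal, 6 of 8 endothelial, 5 of 10 macrophage, 6 of 9 B and plasma cell and 5 of 5 erythroid markers. The summed level of the 19 oocyte markers found in the table, of 20 listed, was 593 to 790 CPM (read counts scaled to library size) in Control, 71.5 to 197 in Aged and 265 to 393 with CEFFE, and that of 6 luteal markers was 1590 to 4780, 7180 to 18700 and 5630 to 11200. Erythroid markers (5) summed to 71.8 to 112 CPM in Control, 265 to 638 in Aged and 109 to 260 with CEFFE. Aged 34 stood apart from the other ovaries. Its 9 B and plasma cell markers summed to 2780 CPM against 94.3 to 323 in the others, its 10 macrophage markers to 2160 against 563 to 1020, and its 8 oviduct markers to 417, a level reached elsewhere only in Control 33 (421). No marker of these lists was at 0 in a whole group. Their part in the sirtuin values was not tested, and fold changes that moved by over 1.5 times without Aged 34 are given with their value without it.

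The start regions of the genes were read to show what they share in sequence. RefSeq lists 9 start windows for the 7 genes (GRCm38.p6, 250 bases before to 50 after each start), and none held TATAAA, which 13.6% of all 32851 windows hold on either strand. The motifs named below were chosen after these windows had been read, and each was searched on both strands. The capitals mark the motif, or its reverse complement, in 30 bases written along the strand of the gene. The 2 stretches of Sirt1 are shown because the E-box CACGTG, found in 7.15% of all windows, occurs in this member only, in 2 copies that begin at -43 and -115 from the start. The Sirt6 and Sirt7 windows are shown because both hold the NRF1 core GCGCATGC (2.71% of all windows). The Sirt2 and Sirt4 windows hold the ZNF143 core ACTACAA (3.24%), and CCAAT, which 37.4% of windows hold, was found for Sirt2, Sirt3 and Sirt5. The 2 hits of the NRF1 core in Sirt6 overlap, since the core is nearly its own reverse complement, and 1 of them is printed.
Sirt1, chr10:63339061-63339090, minus strand: ggaggggcgggtCACGTGacggggtttaaa
Sirt1, chr10:63339133-63339162, minus strand: gcggcgcccggcCACGTGacccggcgtgtt
Sirt6, chr10:81627689-81627718, minus strand: atcaggagggcGCATGCGCtctggaaagaa
Sirt7, chr11:120625020-120625049, minus strand: gggccgggcccGCGCATGCgtctctgtagc
Sirt2, chr7:28766675-28766704, plus strand: ctttttgggatTTGTAGTttgataacatga
Sirt4, chr5:115484410-115484439, minus strand: gattctgggacTTGTAGTtttcttccaact
These are matches of letters and not measured binding sites. The G and C content of the windows was between 50% and 79% (Sirt1), beside a median of 52.7% over all windows.

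The first comparison, Aged vs Control, asked whether the mRNA of any sirtuin differed with age. None of the 7 passed edgeR's quasi-likelihood F test at an adjusted p under 0.05, in a comparison in which 15.4% of the 18956 genes did. The largest difference was 0.34 on the log2 scale (Sirt5), and none reached the 1.5-fold of the study's own rule, which 11.1% of genes met with an adjusted p and 18.2% with an unadjusted p. At an unadjusted p under 0.05, 2 of the 7 passed (Sirt3 and Sirt6, both lower in Aged), beside 31.6% of all genes, or 15.9% in that direction. The Aged and Control ovaries did not overlap for these same members, beside 27.5% of all genes, or 15.6% with Aged lower. DESeq2's Wald test also called 0 of 7 at adjusted p, with 4 at unadjusted p (Sirt2, Sirt3, Sirt5 and Sirt7), beside 21.1% and 32.8% of the genes that edgeR tested. The estimates pointed both ways, with 3 members higher in Aged (Sirt2, Sirt5 and Sirt7) and 4 lower (Sirt1, Sirt3, Sirt4 and Sirt6), and the median absolute log2 fold change was 0.32 over the sirtuins and 0.30 over all genes. The 95% confidence interval lay wholly within a 1.5-fold difference in either direction for 3 of them, Sirt4, Sirt6 and Sirt7. For the other 4 a difference of 1.5-fold in the direction of the estimate was within the interval.

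**Figure D1:**
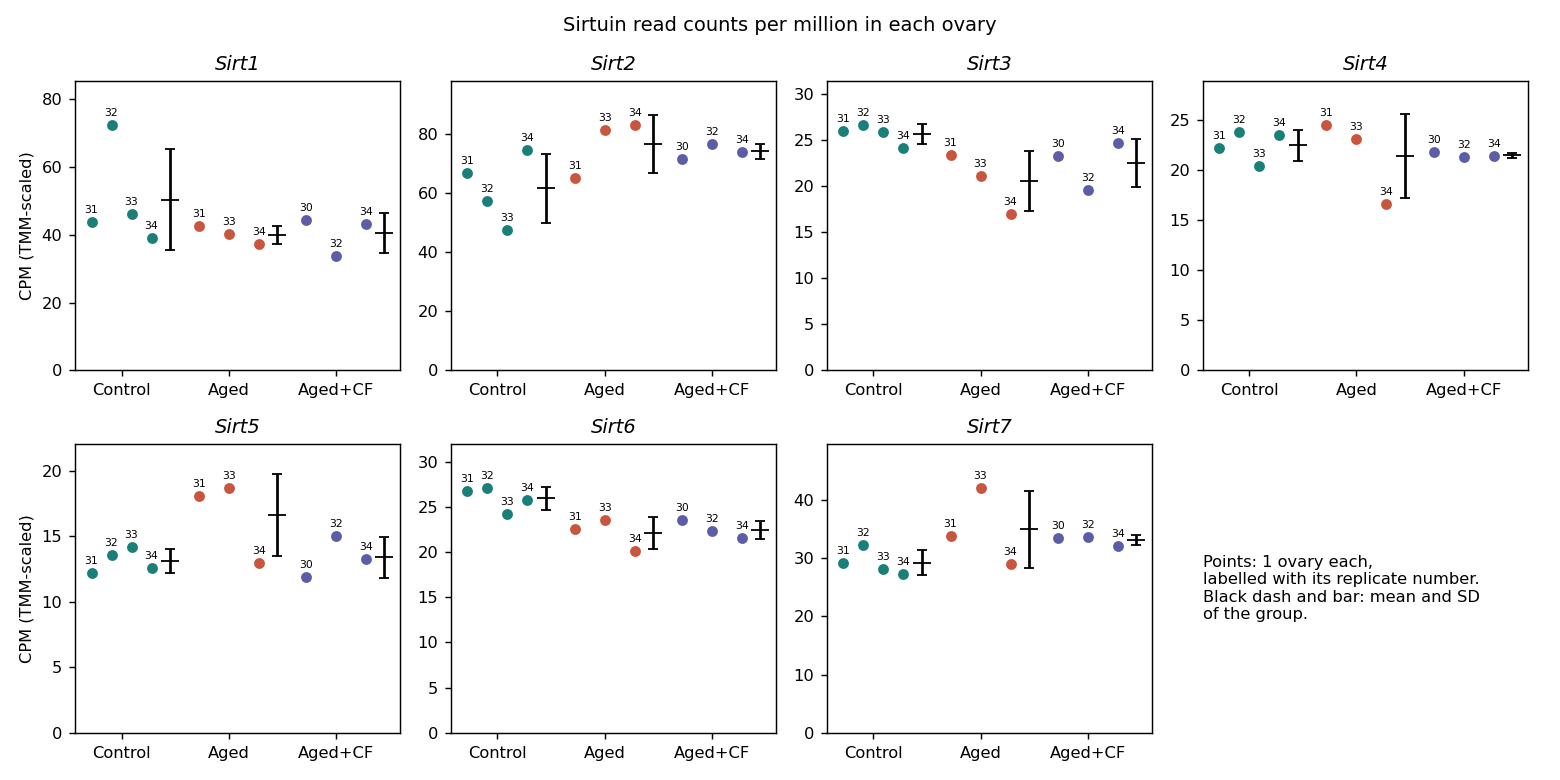
Level of each sirtuin in the 10 ovaries, in TMM-scaled CPM on axes that start at 0. Each point is an ovary with its replicate number, and the black dash and bar are the mean and SD of the group (n = 4 Control, 3 Aged, 3 Aged+CF). Sirt3 and Sirt6 are lower in each Aged ovary than in each Control ovary, Control 32 stands at 72.4 for Sirt1, and Aged 34 is the lowest Aged ovary for every member but Sirt2.

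Sirt1 (ENSMUSG00000020063, chromosome 10, 63319005-63381704, minus strand) encodes the nuclear deacetylase of p53, FOXO factors and PGC-1alpha. Its level in Control was 43.9 CPM in replicate 31, 72.4 in replicate 32, 46.2 in replicate 33 and 39.0 in replicate 34. Aged ovaries were at 42.7, 40.1 and 37.4 CPM and Aged+CF ovaries at 44.5, 33.6 and 43.3. Apart from Control 32 all ovaries lay between 33.6 and 46.2 CPM, and the groups overlapped. The Aged vs Control log2 fold change was -0.33 (95% CI, -0.78 to 0.12; adjusted p = 0.299), and without Control 32 it was -0.10.

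Sirt6 (ENSMUSG00000034748, chromosome 10, 81621785-81627797, minus strand) encodes a chromatin-bound deacetylase of histone H3 with roles in DNA repair and at telomeres. Control ovaries were at 26.7, 27.1, 24.2 and 25.8 CPM, Aged ovaries at 22.6, 23.5 and 20.1 and those treated with CEFFE at 23.5, 22.3 and 21.5. Each of the 6 ovaries of older mice was below the lowest Control ovary. The difference in Aged vs Control was small, a 14.9% lower level, with a log2 fold change of -0.23 (95% CI, -0.46 to -0.01; unadjusted p = 0.0429, adjusted p = 0.143). Without Aged 34 it was -0.13 (adjusted p = 0.388).

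Sirt7 (ENSMUSG00000025138, chromosome 11, 120618372-120625240, minus strand) encodes the nucleolar sirtuin, which binds RNA polymerase I and deacetylates histone H3. Control ovaries were at 29.2, 32.2, 28.2 and 27.3 CPM, Aged ovaries at 33.8, 42.1 and 29.0 and Aged+CF ovaries at 33.5, 33.7 and 32.1. Aged 31 and 33 were above all Control ovaries and Aged 34 was among them. The log2 fold change was 0.26 (95% CI, -0.03 to 0.54; adjusted p = 0.199). It was 0.41 without Aged 34 (adjusted p = 0.0334), which passed the threshold, in a fit that called 22.3% of all genes, and 0.13 without Aged 33.

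Sirt2 (ENSMUSG00000015149, chromosome 7, 28766735-28788661, plus strand) encodes the cytosolic deacetylase of alpha-tubulin, which reaches chromatin in mitosis. It had the most reads of the family. Control ovaries were at 66.8, 57.5, 47.5 and 74.7 CPM, Aged ovaries at 65.3, 81.6 and 83.1 and Aged+CF ovaries at 71.7, 76.7 and 74.1. The Control values covered the widest range of the 3 groups, and Aged and Control overlapped. The log2 fold change in Aged vs Control was 0.32 (95% CI, -0.02 to 0.65; adjusted p = 0.181), and 0.21 without Control 33. Sirt2 was the only member for which Aged 34 was the highest Aged ovary.

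Among the mitochondrial members, Sirt3 (ENSMUSG00000025486, chromosome 7, 140863666-140882309, minus strand) encodes the main deacetylase of the matrix. Control ovaries were at 26.0, 26.6, 25.9 and 24.1 CPM, Aged ovaries at 23.4, 21.1 and 17.0 and those treated with CEFFE at 23.2, 19.6 and 24.7. The Control ovaries lay close together, at 25.7 ± 1.10 CPM (SD, n = 4), and all Aged ovaries were below them. The level in Aged was 0.799 of that in Control, a log2 fold change of -0.32 (95% CI, -0.62 to -0.03; unadjusted p = 0.0356, adjusted p = 0.127). Without Aged 34, the lowest of the 10 ovaries, it was -0.17 (adjusted p = 0.355).

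Sirt4 (ENSMUSG00000029524, chromosome 5, 115478010-115484725, minus strand) encodes an ADP-ribosyltransferase and lipoamidase of glutamate and pyruvate metabolism. Control ovaries were at 22.2, 23.8, 20.4 and 23.5 CPM, Aged ovaries at 24.5, 23.1 and 16.6 and Aged+CF ovaries at 21.8, 21.3 and 21.4. Aged 34 was the only ovary outside the range from 20.4 to 24.5 CPM. The log2 fold change in Aged vs Control was -0.07 (95% CI, -0.38 to 0.24; adjusted p = 0.775), and 0.12 without Aged 34 (adjusted p = 0.449).

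Sirt5 (ENSMUSG00000054021, chromosome 13, 43365496-43395203, plus strand) encodes the sirtuin that removes malonyl, succinyl and glutaryl groups, and it had the fewest reads. Control ovaries were at 12.2, 13.6, 14.2 and 12.6 CPM, Aged ovaries at 18.1, 18.7 and 13.0 and those treated with CEFFE at 11.9, 15.0 and 13.3. Aged 31 and Aged 33 were above all other ovaries, and Aged 34 was within the range of the Control ovaries. The log2 fold change in Aged vs Control was 0.34 (95% CI, -0.01 to 0.68; unadjusted p = 0.0535, adjusted p = 0.166). Without Aged 34 it was 0.52 and passed the threshold (adjusted p = 0.0225), in a fit that called 22.3% of all genes.

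The calls also depended on how libraries were scaled. With library size alone in place of TMM, the median of all tested genes moved by -0.13 on the log2 scale in Aged vs Control, and 27.2% of the called genes were higher in Aged in place of 46.3%. Under that scaling Sirt3 (-0.45, adjusted p = 0.0415) and Sirt6 (-0.36, adjusted p = 0.0298) passed the threshold, as did 17.3% of all genes. Both also passed with limma on log2(FPKM + 0.1), as did 17.7%. Relative to the median gene, Sirt3 was then at -0.33 and Sirt6 at -0.24, next to -0.32 and -0.23 with TMM. The TMM factors ran from 0.871 in Aged 33 to 1.05 in Control 33. Aged 33 also had the largest summed level of the 13 mitochondrially encoded genes, 68300 CPM against 25700 to 40300 in the other ovaries.

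**Figure D2:**
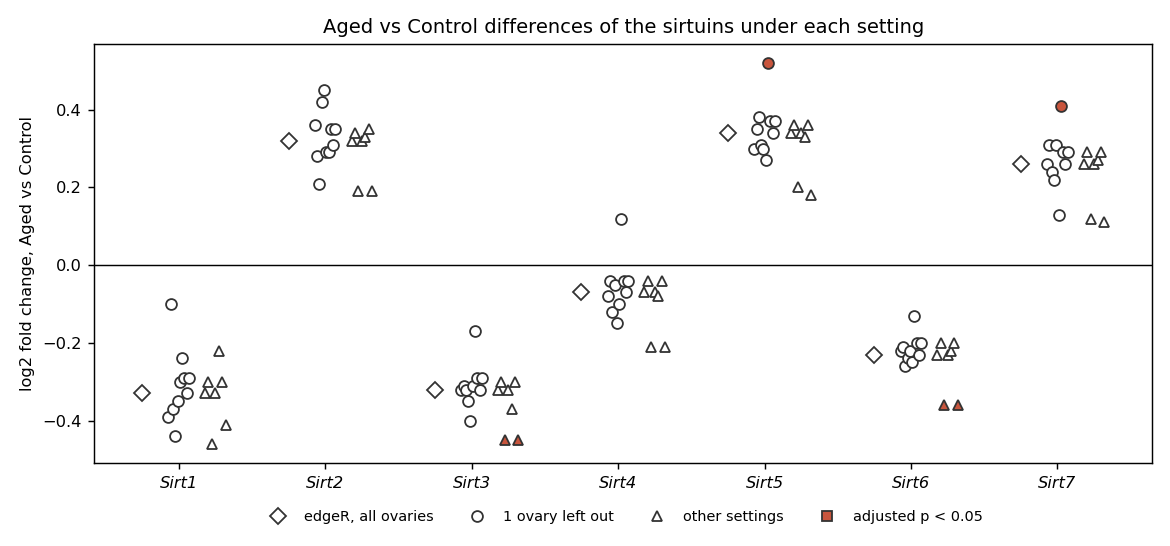
Log2 fold change of each sirtuin in Aged vs Control (vertical axis) with all ovaries, with each ovary left out in turn and under the other settings. Red symbols have an adjusted p under 0.05. Sirt5 and Sirt7 passed without Aged 34, and Sirt3 and Sirt6 passed with library size alone and with limma on log2(FPKM + 0.1), while no other value of the plot did. Of all genes, 22.3% passed without Aged 34, 17.3% with library size alone and 17.7% with limma.

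The second comparison, Aged+CF vs Aged, asked whether the extract moved any sirtuin in ovaries of old mice. No member passed at adjusted or at unadjusted p, with edgeR, with DESeq2 or with limma. With edgeR 0.00528% of all genes passed at adjusted p, a single gene, and 16.3% at unadjusted p. At adjusted p, 3.62% of the genes that edgeR tested passed DESeq2's Wald test, and 6 genes passed with limma. No member had groups that did not overlap (18.6% of all genes did). The log2 fold changes were 0.01 for Sirt1, -0.05 for Sirt2, 0.13 for Sirt3, 0.01 for Sirt4, 0.02 for Sirt6 and -0.08 for Sirt7, and for these 6 the 95% CI lay within a 1.5-fold difference in either direction. The widest of these intervals was that of Sirt1 (-0.46 to 0.49) and the narrowest that of Sirt6 (-0.21 to 0.26). Sirt5 had the largest estimate, -0.31 (95% CI, -0.67 to 0.06; unadjusted p = 0.0925, adjusted p = 0.38). Without Aged 34 it was -0.47 (unadjusted p = 0.00804, which 24% of genes then passed, adjusted p = 0.0887). Without Aged 34, Sirt3 was at 0.00, Sirt4 at -0.16 and Sirt7 at -0.21, while Sirt1, Sirt2 and Sirt6 lay between -0.05 and 0.00. The median absolute log2 fold change was 0.05 over the 7 sirtuins and 0.24 over all genes tested.

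The third comparison, Aged+CF vs Control, also called no sirtuin (0.179% of all genes were called), and none at unadjusted p (14.3%). At unadjusted p, Sirt6 passed with limma (15.4% of all genes did) and with library size alone (14.9%), Sirt7 with only the groups compared (22.7%) and Sirt2 without Control 34 (10.6%). Sirt6 was the 1 member without overlap of the groups (21.9% of all genes had none, 12.2% with Aged+CF lower), with a log2 fold change of -0.21 (95% CI, -0.43 to 0.01; adjusted p = 0.374). The other values were -0.32 for Sirt1, 0.27 for Sirt2, -0.19 for Sirt3, -0.06 for Sirt4, 0.03 for Sirt5 and 0.18 for Sirt7. Some of these rested on an ovary. Sirt1 was at -0.09 without Control 32 and at -0.20 without Aged+CF 32, Sirt2 at 0.16 without Control 33 and Sirt3 at -0.10 without Aged+CF 32. The Aged ovaries serve in both of the first comparisons and the Control ovaries in the first and the last, so these values are not independent.

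**Figure D3:**
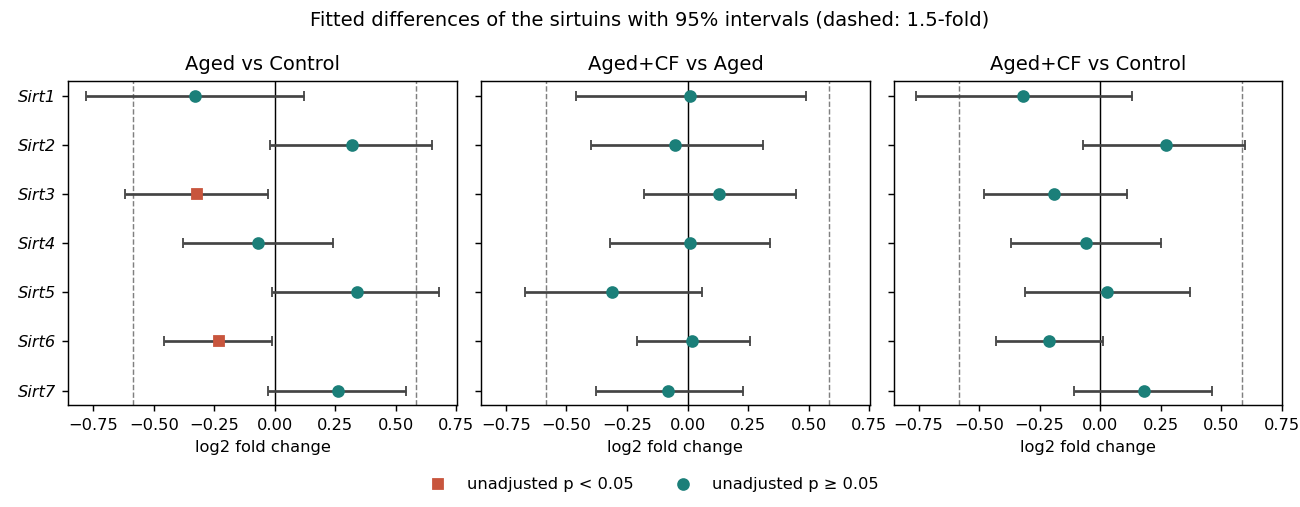
Log2 fold change of each sirtuin (horizontal axis) in the 3 comparisons with its 95% confidence interval from the quasi-likelihood fit of all 10 ovaries. Dashed lines mark a 1.5-fold difference and red squares an unadjusted p under 0.05. All 7 intervals of Aged+CF vs Aged include 0, and in Aged vs Control only those of Sirt3 and Sirt6 do not.

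The ratio of 2 sirtuins within an ovary does not depend on how the library is scaled, so the balance of the family was compared in this way, over all 21 pairs. In Aged vs Control the groups did not overlap for 7 pairs, beside 26.7% of all pairs of tested genes. Of these, 6 set Sirt5 or Sirt7 against Sirt1, Sirt3 or Sirt6. This split repeats the signs of the single-gene estimates, none of which was called. The 21 ratios share the same few genes and are not independent. The ratio of Sirt3 to Sirt5 counts was 1.82 to 2.13 in Control and 1.13 to 1.31 in Aged, and that of Sirt6 to Sirt7 was 0.841 to 0.944 and 0.558 to 0.694. The ratio of Sirt3 to Sirt7 was 0.828 to 0.917 in Control and 0.501 to 0.693 in Aged. In two-sided exact permutation tests the smallest p was 0.0571, the smallest that this test can give with 4 against 3 ovaries, and the smallest after Benjamini-Hochberg adjustment over the 21 pairs was 0.171. In Aged+CF vs Aged 1 pair did not overlap, Sirt4 to Sirt5 (1.42 to 1.83 in Aged+CF, 1.23 to 1.36 in Aged), beside 17% of all gene pairs, with a smallest exact p of 0.1, the least possible with 3 against 3, and an adjusted p of 0.955.

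Summed over the family, the level was 207 to 253 CPM in Control, 216 to 250 in Aged and 222 to 230 in Aged+CF, and these ranges overlapped. Levels of different members were compared per length. In FPKM as deposited, Control ovaries ranked Sirt2 (7.69 ± 1.45, SD, n = 4), Sirt6 (6.32 ± 0.249), Sirt4 (5.03 ± 0.291), Sirt1 (4.93 ± 1.41), Sirt3 (3.12 ± 0.131), Sirt7 (2.60 ± 0.164) and Sirt5 (1.42 ± 0.104). Sirt2 and Sirt6 overlapped among Control ovaries, as did Sirt4 and Sirt1, while the other neighbours in this order did not. Sirt2 was first and Sirt5 last in all 3 groups, and Sirt2 made up 24.7% ± 4.25 of the summed FPKM of the family in Control, 30.9% ± 4.97 in Aged (SD, n = 3) and 30.2% ± 1.49 in Aged+CF (SD, n = 3).

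The order below Sirt2 depended on the length used. The length by which the deposited FPKM divides was 2.24 (Sirt6) to 6.84 (Sirt5) times that of the principal transcript of GENCODE M21, and longer than the union of all annotated exons for each member. Per kilobase of the principal transcript, Control ovaries ranked Sirt2 (33.4 CPM per kb), Sirt3 (17.6), Sirt7 (16.9), Sirt6 (13.7), Sirt4 (12.5), Sirt1 (11.4) and Sirt5 (9.40). Sirt3 thus moved from the fifth place to the second. Per kilobase of the union of exons, however, Sirt3 was in the sixth place (4.3 CPM per kb) and Sirt1 in the second (9.45). By the principal transcript, Sirt3 and Sirt7 overlapped among Control ovaries, as did Sirt6 and Sirt4, Sirt4 and Sirt1, and Sirt1 and Sirt5. In Aged and Aged+CF, Sirt1 was last by the principal transcript (9.05 and 9.13 CPM per kb). Sirt2 was the first member by each of these lengths. The transcript and exon lengths were added after the data had been seen, and they have no bearing on the comparisons between groups.

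**Figure D4:**
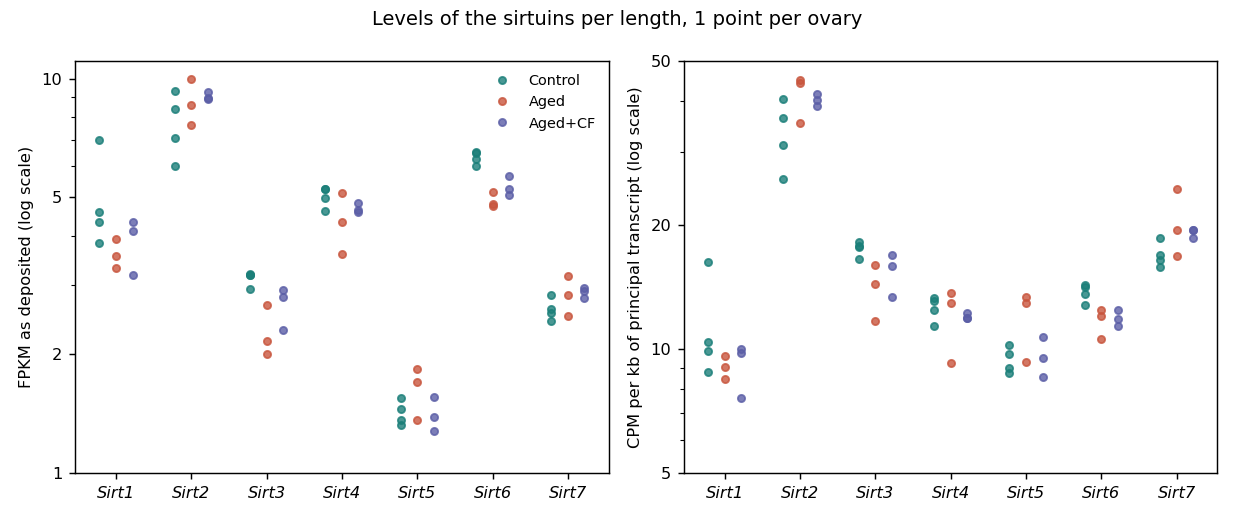
Levels of the 7 sirtuins in each ovary (1 point each, coloured by group) per length of the gene, on log axes. Left, FPKM as deposited, right, TMM-scaled CPM per kilobase of the principal transcript. Sirt2 is the highest in both panels, and the order of the other members differs between the panels.

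Some reads of these genes could belong to a neighbour, since the sources do not state whether strand was used in counting. In GENCODE M21, 12.72% of the exon bases of Sirt3 are shared with Ric8a (418 bases) and Psmd13 (342 bases) on the opposite strand. Ric8a, a chaperone of G protein alpha subunits, had a log2 fold change in Aged vs Control of 0.06 and Psmd13, a proteasome subunit, of 0.14, beside the -0.32 of Sirt3, and neither passed the test. Sirt7 shares 124 bases with Mafg on its own strand (-0.02), Sirt2 shares 42 with Nfkbib (0.30, adjusted p = 0.326), and the antisense gene across Sirt1, Gm16145, had no counts. Sirt4, Sirt5 and Sirt6 overlap no annotated gene.

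The genes around the sirtuins in their pathway were taken as lists written from general knowledge, with earlier results of these data known. Their counts are therefore not those of lists set in advance. The background for these counts in Aged vs Control is 7.14% of all genes called higher in Aged and 8.3% called lower. Of 9 tested genes of NAD supply, 2 rose in Aged, Nampt, the rate-limiting enzyme of NAD salvage, by 1.49 on the log2 scale (adjusted p = 0.0234) and the nicotinamide riboside kinase Nmrk1 from 5.64 ± 0.521 to 11.3 ± 2.11 CPM (SD, n = 4 and 3, adjusted p = 0.0148). Nampt was at 175, 378 and 93.5 CPM in the Aged ovaries and at 66.5 to 87.0 in Control, and its log2 fold change was 0.84 without Aged 33 (adjusted p = 0.0431). Of 6 other NAD consumers, the NAD glycohydrolase Cd38 rose from 13.9 ± 1.21 to 27.5 ± 3.36 CPM (0.99, adjusted p = 0.00361) and Parp1, the main poly(ADP-ribose) polymerase, fell from 225 ± 13.3 to 145 ± 4.51 CPM (-0.64, adjusted p = 0.00547). The 4 others did not pass. The Aged and Control ovaries of these 4 named genes did not overlap, beside 27.5% of all genes. The 4 were named for their small adjusted p in this same comparison, so the lack of overlap adds nothing to their calls. The same holds for the genes named below from the other lists.

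Among 9 regulators of SIRT1, 4 fell in Aged and none rose. Ccar2, also called DBC1, an inhibitor that binds the catalytic domain of SIRT1, was at 100 to 104 CPM in Control and at 78.6, 78.9 and 61.2 in Aged (-0.48, adjusted p = 0.0135). Senp1, a SUMO protease that acts on SIRT1, was at 40.5, 36.6 and 36.9 CPM in Aged, below the 49.4 to 50.4 of Control and the 46.5 to 48.7 of Aged+CF (Aged vs Control, -0.39, adjusted p = 0.0117). Aged+CF and Aged did not overlap for 18.6% of all genes, and the adjusted p of Senp1 in that comparison was 0.161. E2f1, a cell-cycle transcription factor, was lower by the largest amount (-1.49, adjusted p = 0.0174). The median of the list was -0.07, beside 0.00 over all genes.

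Of 18 nuclear and cytosolic substrates, 3 rose and 3 fell in Aged, with a median of 0.00. The largest rise among those named was that of Acss2, the acetyl-CoA synthetase of the cytosol that SIRT1 activates, from 19.8 to 32.1 CPM in Control to 121, 191 and 43.5 in Aged (2.21, adjusted p = 0.013). The mitotic checkpoint kinase Bub1b, a substrate of SIRT2, fell from 55.0 to 76.6 CPM in Control to 24.3, 24.3 and 9.54 in Aged (-1.75, adjusted p = 0.00836). Nr1h3, the liver X receptor alpha, rose by 1.05 (adjusted p = 0.0211). Of 15 tested mitochondrial substrates, 4 rose and 1 fell. Both textbook substrates of SIRT3 are among them, Sod2, the manganese superoxide dismutase, which rose by 1.02 (adjusted p = 0.0365), and Idh2, the NADP-dependent isocitrate dehydrogenase, which fell by 0.71 (adjusted p = 0.0125). Pdha1, the pyruvate dehydrogenase subunit whose complex SIRT4 acts on, rose by 0.50 (adjusted p = 0.00699). The Sod2 values of Aged and Control overlapped, with Aged 34 at 97.7 CPM, and with each ovary left out in turn the number of mitochondrial substrates called ran from 2 to 9, and that of nuclear and cytosolic substrates from 2 to 6.

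RNA polymerase I, which SIRT7 binds, was represented by 14 genes, of which 3 fell in Aged and none rose. The catalytic subunits Polr1a (-0.59, adjusted p = 0.0137) and Polr1b (-0.48, adjusted p = 0.0201) and the initiation factor subunit Taf1d (-0.60, adjusted p = 0.00911) passed, and the list's median was -0.21. For the other enzymes that set lysine acetylation, 1 of 11 zinc-dependent deacetylases fell (Hdac6, -0.55, adjusted p = 0.0193, a tubulin deacetylase like SIRT2) and 1 of 13 lysine acetyltransferases rose (Kat2b, 0.40, adjusted p = 0.00969). The lists hold 91 distinct tested genes. With edgeR none of them was called in Aged+CF vs Aged or Aged+CF vs Control, and 19 passed at unadjusted p in each, beside 16.3% and 14.3% of all genes. DESeq2's Wald test called 8 of them in Aged+CF vs Aged (Bub1b, Cd38, Nampt, Nmnat1, Parp1, Pdha1, Senp1 and Sod2), beside 3.62% of all genes, and 5 in Aged+CF vs Control, Cd38, Kat2b, Nmrk1 and Pck1 among them, beside 3.54%. With Aged 34 left out, edgeR called 5 (Acss1, Lonp1, Nampt, Sod2 and Znrd1), beside 3.36%, and 2 (E2f1 and Stat3), beside 1.96%, and limma over all ovaries called 0 in both. These genes were named after their values were seen. Between the Aged+CF and Aged ovaries edgeR's unadjusted p was 0.00183 for Cd38 (log2 fold change -0.54), 0.00279 for Parp1 (0.40), 0.00252 for Senp1 (0.32) and 0.00154 for Pdha1 (-0.38), with adjusted p-values of 0.161 to 0.164. No marker of the 10 cell type lists was called by edgeR in this comparison. At unadjusted p, beside 16.3% of all genes, 8 of 19 oocyte, 2 of 12 granulosa cell, 4 of 9 theca and steroidogenic and 1 of 6 luteal markers passed. So did 8 of 9 B and plasma cell, 5 of 8 endothelial, 4 of 5 erythroid, 2 of 10 macrophage, 2 of 8 oviduct and 0 of 10 stromal and smooth muscle markers. The part of these markers in the values of Cd38, Parp1, Senp1 and Pdha1 was not tested.

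**Figure D5:**
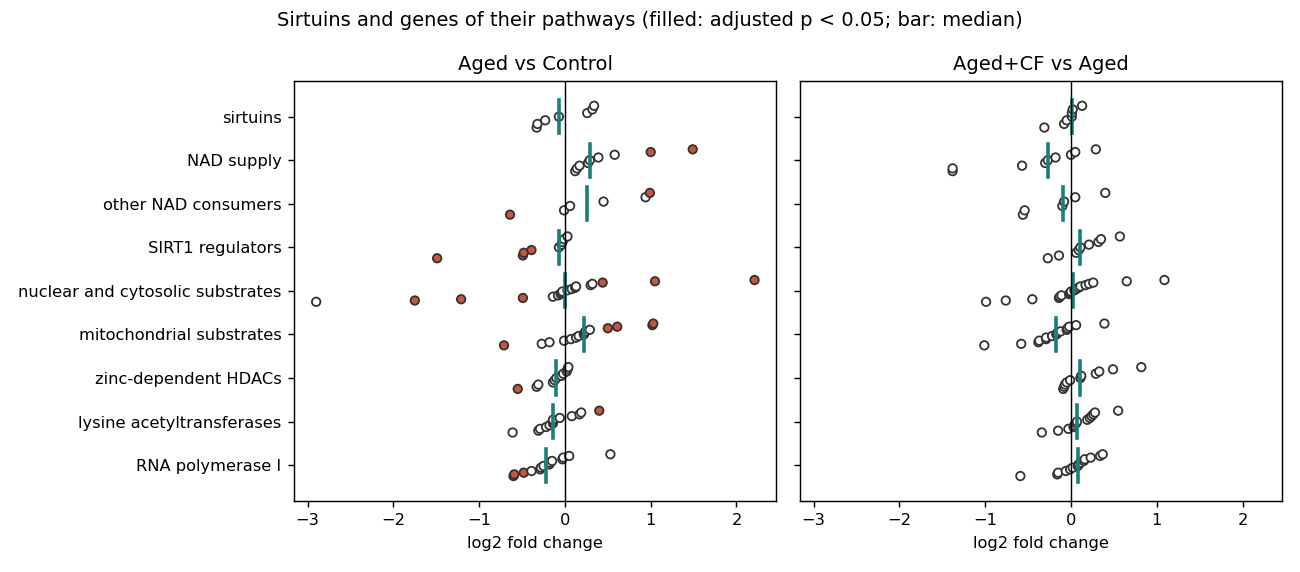
Log2 fold changes of the sirtuins and of the tested genes of 8 lists from their pathways in Aged vs Control (left) and Aged+CF vs Aged (right). Each point is a gene, red points have an adjusted p under 0.05 and the green bar is the median of the list. The sirtuins lie between -0.33 and 0.34 in Aged vs Control, and no point is red in Aged+CF vs Aged.

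The spread of the sirtuins among the 10 ovaries differed from member to member. The root mean square deviation of log2 CPM from a gene's own mean over all ovaries was 0.129 for Sirt6, smaller in 11.4% of the 16744 genes that averaged 1 CPM or more, and 0.150 for Sirt4, 0.171 for Sirt7, 0.194 for Sirt3, 0.212 for Sirt5, 0.234 for Sirt2 and 0.278 for Sirt1, beside a median of 0.275 over all these genes. The share of genes with a smaller spread was 40.4% for Sirt2 and 50.4% for Sirt1. The genes whose pattern over the 10 ovaries was most like a sirtuin's were found by the root mean square difference of centred log2 CPM. They were Tarbp2 (0.044) and Nup88 (0.052) for Sirt6, Arl6ip6 (0.049) and Gm14292 (0.059) for Sirt4, Prkag1 (0.055) and Rdh13 (0.068) for Sirt7, and Sptlc1 (0.063) and Rtn4ip1 (0.065) for Sirt5. Tdp2 (0.071) was the nearest for Sirt3. The nearest were, for Sirt2, 2810002D19Rik (0.090) and Bmi1 (0.102), and for Sirt1 Podxl2 (0.108) and Med23 (0.139). Sptlc1, a subunit of serine palmitoyltransferase, had a log2 fold change of 0.41 in the first comparison and of -0.39 between Aged+CF and Aged, beside 0.34 and -0.31 for Sirt5. Sptlc1 was picked for its likeness to Sirt5 in these same ovaries, so the closeness of these values follows from the rule.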

How the data were processed

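RNA from 10 mouse ovaries (4 Control, 3 Aged, 3 Aged+CF) was used, with groups and replicate numbers from the labels. Unnormalized read counts of each gene were deposited by the authors, made per the submitters' processing notes with TopHat and the build GRCm38.p4. Cufflinks 2.1.1 is also named, and the annotation, the counting tool and the use of strand are not given in the sources used here. The authors also deposited FPKM values, counts scaled by gene length and by the counted reads of the ovary. The depth was 15761789 to 21318254 counts per ovary, and no pair of libraries was a duplicate.

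Counts were fitted with edgeR 4.0 in R 4.3 over all 10 ovaries with a mean per group, after its filter on low counts (18956 genes) and TMM scaling, and tested with the quasi-likelihood F test with Benjamini-Hochberg adjustment over all genes tested. A gene was called at an adjusted p under 0.05. CPM are TMM-scaled, and log2 CPM have a prior count of 2. Intervals are 95% intervals of the fit. The p-values test a difference between group means. The difference is set against the spread between animals within groups, estimated over the 3 groups together. Positions and lengths are from GENCODE M21, in which 55141 of the 55487 identifiers were found, and start windows are from RefSeq.

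The members and lists were chosen with earlier results of these data known, and the ratios of members, their tests and the start-site motifs were chosen after values or sequences were seen. From each pathway list up to 3 called genes with the smallest adjusted p in Aged vs Control are named, and for each sirtuin its overlapping genes, its nearest protein-coding neighbours and the 2 genes of most similar pattern. Some entries chosen by these rules, and a motif, are not reported here. Alternatives were no filter, DESeq2's size factors, library size alone, only the groups compared, DESeq2 1.42 with its Wald test, limma 3.58 on log2(FPKM + 0.1), a block for the replicate number, and each ovary left out in turn. Ovaries with the same number are different animals, and the number was not used in the reported fit.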

Additional observations from a re-analysis of the deposited data

How the results depend on the processing

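Of 147 log2 fold changes of the sirtuins under other settings, 133 kept their direction and their side of the threshold, 4 came to pass it and 10 changed sign, and of 210 with an ovary left out, 196 did, 2 came to pass and 12 changed sign. The values that changed sign lay near 0, and the cause was not tested. The number of sirtuins called in Aged vs Control was 2 with library size alone and with limma on log2(FPKM + 0.1), namely Sirt3 (-0.45 in both, adjusted p = 0.0415 and 0.0495) and Sirt6 (-0.36 in both, adjusted p = 0.0298 and 0.0211), and 0 to 2 with an ovary left out, namely Sirt5 (0.52) and Sirt7 (0.41) without Aged 34. It was 0 in the other settings and comparisons. The share of all genes called in Aged vs Control was 17.3% with library size alone, 17.7% with limma and 22.3% without Aged 34. With an ovary left out, Aged vs Control values ran from -0.15 to 0.12 for Sirt4, 0.27 to 0.52 for Sirt5 and 0.13 to 0.41 for Sirt7. Aged+CF vs Aged values ran from -0.07 to 0.13 for Sirt1, -0.16 to 0.00 for Sirt2, -0.16 to 0.10 for Sirt4, -0.05 to 0.07 for Sirt6 and -0.21 to 0.07 for Sirt7, and Aged+CF vs Control values from -0.06 to 0.13 for Sirt5. In Aged+CF vs Aged, only the groups compared gave 0.00 for Sirt1 and Sirt4, library size alone gave 0.04 for Sirt2 and 0.02 for Sirt7, and limma gave 0.05 and 0.03. In Aged+CF vs Control both gave -0.01 for Sirt5.

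Genes called in Aged vs Control numbered 2927, 1813 with only the groups compared and 1312 to 4318 with an ovary left out. In Aged+CF vs Aged they numbered 1, 690 with DESeq2's Wald test, 6 with limma and 1 to 650 with an ovary left out (650 without Aged 34), and in Aged+CF vs Control 34, 594 with only the groups compared, 673 with DESeq2, 67 with limma and 7 to 380. With the replicate number as a block, Sirt1 was at -0.20 and Sirt6 at -0.01 in Aged+CF vs Aged, no sirtuin was called, and 80, 0 and 9 genes were called. The deviations of same-numbered ovaries did not go together (r across genes from -0.18 to 0.15). Each r is from a single pair of ovaries, and the labels do not say what the number stands for. Whether such ovaries share more than a number was not tested. Of the 18 named pathway genes, all called in Aged vs Control, 14 to 18 were called with an ovary left out, Sod2, Nampt, Nr1h3, Polr1b and Hdac6 being those lost, 16 with only the groups compared (without Nampt and Sod2), 17 with no filter and with limma (without Sod2), and 0 with the block. Each sirtuin was counted at least 208 times per ovary, and what more reads would change was not tested.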

Other observations

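The nearest protein-coding genes on either side of the sirtuins were read from the same fit, and 12 of the 14 were tested. Pcyt2, an enzyme of phosphatidylethanolamine synthesis, lies 435 bases from Sirt7 on the same strand. It was the only one of the 12 called in Aged vs Control, in which 15.4% of all genes were called. Its log2 fold change was 1.30 (95% CI, 0.57 to 2.02, adjusted p = 0.0266), beside 0.26 for Sirt7. Ankrd24 starts 742 bases from the start of Sirt6 on the opposite strand, and it was at 32.4 ± 8.69 CPM in Control (SD, n = 4), 20.7 ± 2.54 in Aged (SD, n = 3) and 35.9 ± 3.59 in Aged+CF (SD, n = 3). Its Aged ovaries did not overlap those of Control, as for 27.5% of all genes, or those of Aged+CF, as for 18.6%. The log2 fold change of Ankrd24 was -0.65 between Aged and Control (adjusted p = 0.0562) and 0.80 between Aged+CF and Aged (unadjusted p = 0.00394, adjusted p = 0.17), beside -0.23 and 0.02 for Sirt6. Rinl, 307 bases from Sirt2, was at 0.99 in Aged vs Control (adjusted p = 0.0569), beside 0.32 for Sirt2. These 3 were singled out after their values were seen.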
